A study of Mus musculus with 8 samples.

Results

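The genes described here are the ABC transporters of subfamilies A to G and 3 solute carrier families that move bile acids and other organic ions: Slc10a, Slco and Slc22a. Members were all genes whose symbol begins with one of these family names and that had at least 1 probe set annotated to that single symbol. The rule used no measured value. It found 86 genes with 161 probe sets on the arrays that carried the tumours, of 18194 genes in all, and 69 of these genes with 115 probe sets on the arrays that carried the adenovirus livers, of 12394 genes in all. The 86 genes comprised 14 Abca, 8 Abcb, 10 Abcc, 3 Abcd, 1 Abce, 3 Abcf, 6 Abcg, 5 Slc10a, 21 Slc22a and 15 Slco genes.

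The study measured RNA in relation to telomere dysfunction in mice that all lacked p53 and had a C57BL/6J background. One data set held 3 hepatocellular carcinomas from mTERC- mice, which lack the telomerase RNA gene, and 3 from mTERC+ mice, which carry it. Both tumour groups carried an HBs transgene, the animals were 12 to 15 months old and each array held 1 tumour. The promoter of the transgene is not given in the sources used here. The other data set held liver taken 48 hours after intravenous adenovirus, with 1 array for a virus carrying TRF2DBDM and 1 for a virus carrying GFP. TRF2DBDM is a dominant-negative form of the telomere-binding protein TRF2. Each of these 2 arrays carried RNA pooled from 3 mice, so the spread between infected mice was not measured. The labels do not say that the tumours of a group came from separate litters, and p-values measure the spread between these 6 arrays.

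In liver, hepatocytes take up bile acids and organic anions from sinusoidal blood through carriers of the Slc10a, Slco and Slc22a families. They secrete bile acids, phospholipid, cholesterol, bilirubin conjugates and drugs into bile through ABC transporters of the canalicular membrane. Other ABC transporters on the basolateral membrane return conjugates to blood, and the Abca and Abcg families also move lipids to lipoproteins or within cells. The Abce and Abcf proteins share the ATP-binding cassette but act at the ribosome rather than as transporters.

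The values are MAS5 signals, the array software's linear measure of a probe set's brightness, and a level is log2 of the signal plus 32. A signal depends on its probe set as well as on the RNA, so values were compared between arrays and not between genes. One tumour array stood apart: the Gapdh control of mTERC- tumour 2 had a 3'/5' signal ratio of 13.8, where the other 5 tumours had 0.983 to 1.18, and a mean correlation of 0.788 with the other tumour arrays, against 0.835 to 0.847. The 18S control was low in mTERC- tumours 2 and 3 (318 and 349), beside 11010 to 27810 in the remaining 4. All arrays are labelled as hepatocytes. The hepatocyte list (6 of 8 markers measured, among them Alb and Apoa1) summed to 154900 to 223100 in mTERC- tumours and 178800 to 236200 in mTERC+ tumours, with none of the 6 below the array median. All 7 endothelial markers were at or above the array median in mTERC- tumour 1 and in mTERC+ tumours 1 and 2, so the RNA was not from hepatocytes alone.

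The comparison of mTERC- with mTERC+ carcinomas asks which transporter genes differ when telomerase RNA is absent. Of the 86 members, 57 passed the filter on low levels and were tested, and 29 did not. No tested member passed limma's test at a Benjamini-Hochberg adjusted p of 0.05, where 0.00835% of all 11980 genes passed (1 gene, S100a8, a neutrophil calprotectin subunit). The smallest adjusted p of a member was 0.906. At an unadjusted p of 0.05, limma separated 4 of 57 members (7.02%), against a background of 5.04%. These were Slc10a1, higher in mTERC- tumours, and Abca3, Abca8b and Slco1b2, lower in them. Of the 57, 27 had a higher and 30 a lower mean level in mTERC- tumours, with a median log2 difference of -0.07, beside 0.02 over all genes tested. All 3 mTERC- tumours were above all 3 mTERC+ tumours for 2 members (3.51%, background 5.75%), Slc10a1 and Slco3a1. They were below all 3 for 3 members (5.26%, background 4.39%), Abca3, Abca8b and Abcc9. These shares lie near the background.

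**Figure D1:**
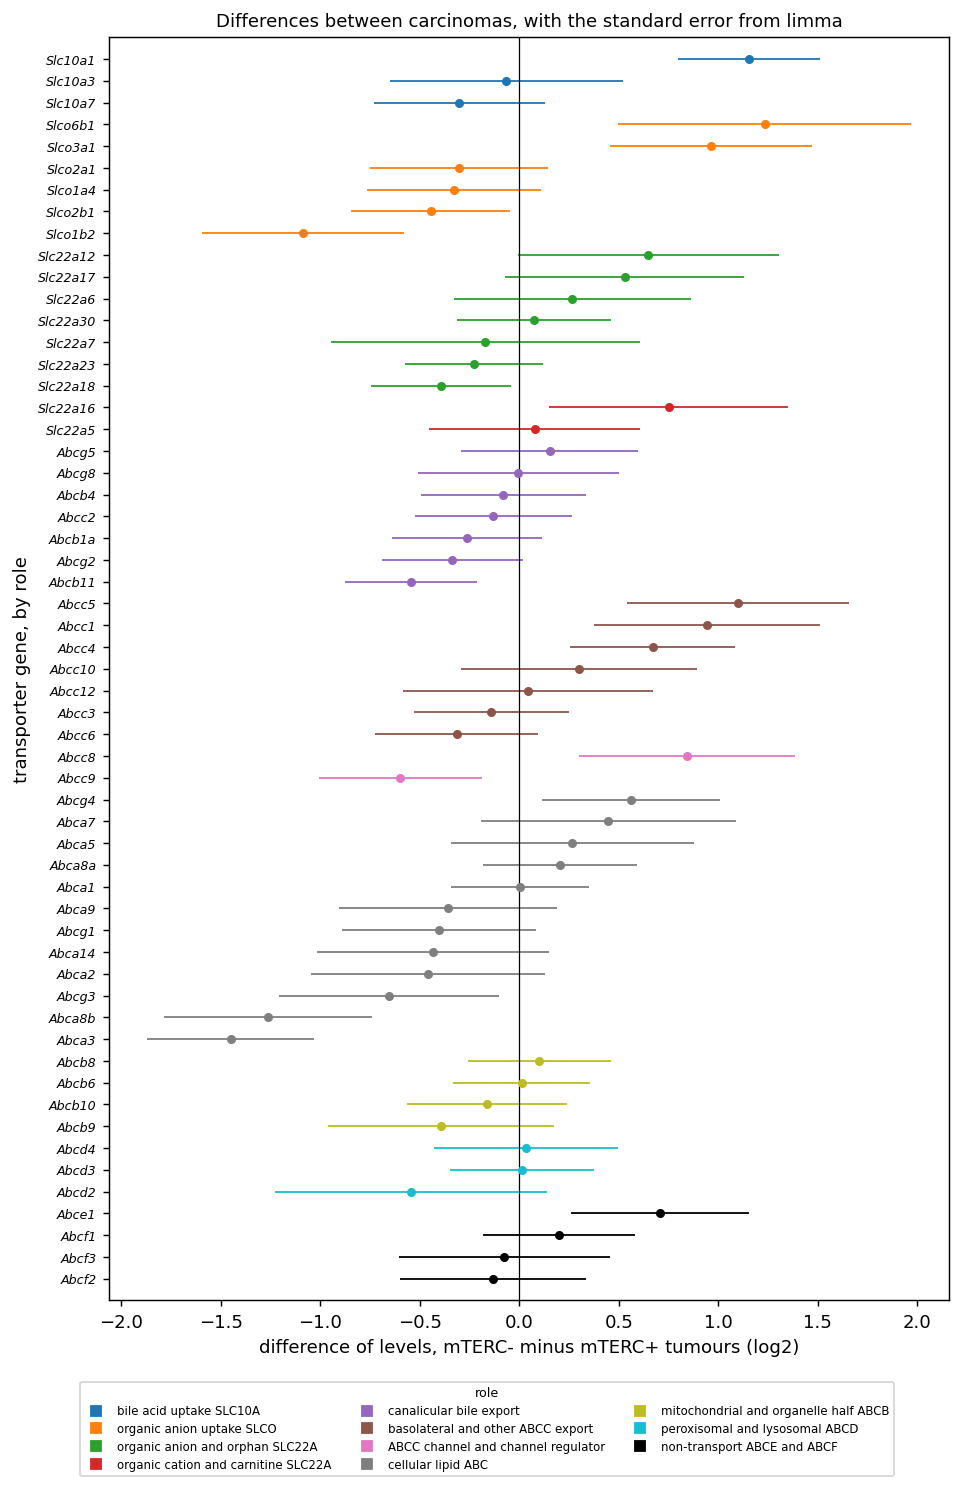
Difference of mean level (log2 signal plus 32) between mTERC- and mTERC+ tumours for the 57 tested members, grouped by role, with points for the difference and bars for its standard error from limma (3 tumours each). Slc10a1 stands at 1.15 and Abca3 at -1.45, most of the canalicular exporters lie near 0, and no member passed the adjusted test.

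Among the uptake carriers, Slc10a1 encodes NTCP, the sodium-dependent carrier that brings conjugated bile acids into hepatocytes. It lies on chromosome 12 from 80953185 to 80968705 (GRCm38.p6). Its signal was 658, 1012 and 980 in mTERC- tumours 1, 2 and 3, against 281, 375 and 489 in mTERC+ tumours 1, 2 and 3. The groups did not overlap, with a log2 difference of 1.15 (SE 0.36, 95% interval 0.39 to 1.92, limma adjusted p = 0.906). The other tested probe set of Slc10a1 read 218, 256 and 477 in mTERC- tumours and 135, 78.3 and 179 in mTERC+ tumours, a log2 difference of 1.08 with no overlap. Without mTERC- tumour 2 the difference of the main probe set was 1.05. In bulk tumour RNA a change in the number of hepatocytes and a change in RNA per hepatocyte cannot be told apart. The hepatocyte list summed to overlapping ranges in the 2 groups, as given above. Neutrophil markers (5 of 6 measured) separated the groups, with sums of 20870, 14850 and 8995 in mTERC- tumours against 1134, 2864 and 287 in mTERC+ tumours, and their part in the transporter differences was not tested.

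Slco1b2 encodes an organic anion carrier of the sinusoidal membrane that takes up bilirubin conjugates, bile acids and statins. Its signal was 932, 425 and 169 in mTERC- tumours, against 1475, 882 and 581 in mTERC+ tumours, with mTERC- tumour 1 above 2 of the mTERC+ tumours. The log2 difference was -1.08 (SE 0.51, limma adjusted p = 0.953), and it was -1.50 and -0.35 on the other 2 tested probe sets. Slco1a4, which carries bile salts, steroid conjugates and digoxin, had a difference of -0.33, and Slco2b1, a carrier of steroid sulfates, one of -0.45. For Slco2b1 the other 2 tested probe sets gave -0.49 and 0.88, and the difference was -0.05 without mTERC+ tumour 1, so it has no settled direction. Slco2a1, the prostaglandin carrier, had a difference of -0.30, with -0.47 and 0.36 on its other tested probe sets. Slco3a1, a broadly expressed carrier of prostaglandins and thyroid hormone, read 91.1, 128 and 98.4 in mTERC- tumours and 40.2, 21.1 and 58.4 in mTERC+ tumours. That is a log2 difference of 0.96 (SE 0.51, limma adjusted p = 0.953). The Slco3a1 signals of mTERC+ tumours 1 and 2 were below their array medians of 57.2 and 59.4. The size of that difference is therefore not secure. Slco6b1 reached 318 in mTERC- tumour 2 and lay between 4.1 and 96.8 in the other 5 tumours, so its difference of 1.23 was 0.50 without that tumour. Of the 6 Slco genes tested, 2 were higher and 4 lower in mTERC- tumours by mean level, and none passed.

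Slc22a7 encodes OAT2, an organic anion carrier of the hepatocyte sinusoidal membrane, and it varied widely between tumours. Its signal was 166, 534 and 396 in mTERC- tumours, against 117, 161 and 2331 in mTERC+ tumours. The log2 range over the 6 tumours was 3.98, at percentile 99.5 of all genes tested, and mTERC+ tumour 3 alone held the high end. The difference between groups was -0.17, with a 95% interval from -1.83 to 1.49. Slc22a30, Slc22a23 and Slc22a5 had differences of 0.07, -0.23 and 0.08. Slc22a5 is the sodium-dependent carnitine carrier OCTN2, while the other 2 have less settled substrates. Slc22a18, an imprinted member of the family, read 1169, 850 and 690 in mTERC- tumours and 1259, 866 and 1459 in mTERC+ tumours.

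The canalicular exporters form the bile. Abcb11 is the bile salt export pump, Abcb4 the phosphatidylcholine floppase, Abcc2 the exporter of bilirubin glucuronides, Abcg2 an exporter of sulfates, urate and drugs, and Abcb1a a P-glycoprotein. Abcg5 and Abcg8 pair to export cholesterol. Of the 7 tested, 1 was higher and 6 lower in mTERC- tumours by mean level, none passed and the median difference was -0.13. Abcb11 read 1406, 1304 and 2131 in mTERC- tumours, against 2744, 2274 and 1978 in mTERC+ tumours. Its groups overlapped by mTERC- tumour 3, and the log2 difference was -0.54 (95% interval -1.25 to 0.16, limma adjusted p = 0.953). Abcb4 read 1789, 4319 and 4862 in mTERC- tumours and 2616, 3109 and 5477 in mTERC+ tumours, a difference of -0.08 with a 95% interval from -0.96 to 0.80. The intervals for Abcc2 (-0.97 to 0.71), Abcg2 (-1.09 to 0.42) and Abcb1a (-1.07 to 0.54) also hold 0. Each interval includes differences of more than 1.5-fold in at least 1 direction, so a change of that size would not have been resolved with 3 tumours a group.

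Abcg5 and Abcg8 lie head to head on chromosome 17 and were followed as a pair. Abcg5 read 1371, 650 and 813 in mTERC- tumours, against 443, 738 and 1577 in mTERC+ tumours. Abcg8 read 348, 476 and 278 in mTERC- tumours, against 163, 283 and 958 in mTERC+ tumours. Both genes had their lowest signal in mTERC+ tumour 1 and their highest in mTERC+ tumour 3, and the mean differences were 0.15 and -0.01. Their RefSeq promoter windows, 250 bases before to 50 bases after the annotated start on GRCm38.p6, are chr17:84682962-84683261 on the minus strand for Abcg5 and chr17:84682871-84683170 on the plus strand for Abcg8. Abcg8 also has a RefSeq window at chr17:84676052-84676351, which does not overlap that of Abcg5. The 2 windows compared here share 209 bases of the same DNA. These hold the stretch between the 2 annotated starts and the 50 bases after each start. The shared bases are in capitals below, with each window read 5′ to 3′ on its own strand.
Abcg5: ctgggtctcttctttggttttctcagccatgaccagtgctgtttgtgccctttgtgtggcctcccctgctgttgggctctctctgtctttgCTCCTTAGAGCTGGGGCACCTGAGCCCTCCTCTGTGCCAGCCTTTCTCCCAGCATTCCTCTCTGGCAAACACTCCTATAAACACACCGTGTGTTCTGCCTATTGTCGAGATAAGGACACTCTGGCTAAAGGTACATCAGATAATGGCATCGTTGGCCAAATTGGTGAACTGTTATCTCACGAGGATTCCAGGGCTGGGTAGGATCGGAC
Abcg8: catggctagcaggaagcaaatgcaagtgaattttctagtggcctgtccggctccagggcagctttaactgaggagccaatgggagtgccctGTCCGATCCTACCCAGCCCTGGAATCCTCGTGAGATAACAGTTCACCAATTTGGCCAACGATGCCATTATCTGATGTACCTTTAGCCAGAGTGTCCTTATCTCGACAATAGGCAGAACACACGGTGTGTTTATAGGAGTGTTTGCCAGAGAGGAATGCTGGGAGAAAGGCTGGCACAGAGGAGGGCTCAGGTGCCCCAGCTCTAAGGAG

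mTERC+ tumour 3 held the highest level of the 6 tumours for 17 of the 57 members (29.8%), against 15.9% of all genes tested. Among the canalicular exporters it was highest for Abcb1a, Abcb4, Abcc2, Abcg5 and Abcg8. mTERC+ tumour 2 held the highest level for 2 members (3.51%), against 14.2% of all genes. The median log2 range over the 6 tumours was 1.71 for the members, against 1.45 over all genes tested, while Abcd4, Slc22a23, Slc22a30, Abcb6 and Abcb8 had ranges of 0.45 to 0.65. Macrophage markers (8 of 8 measured) summed to 12320, 7748 and 5996 in mTERC- tumours 1, 2 and 3. The sums were 21340, 42600 and 5561 in mTERC+ tumours 1, 2 and 3. In mTERC- tumour 3, where the sum was also low, 12.3% of members had their highest level, against 15.3% of all genes. The part of macrophages in these levels was not tested.

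**Figure D2:**
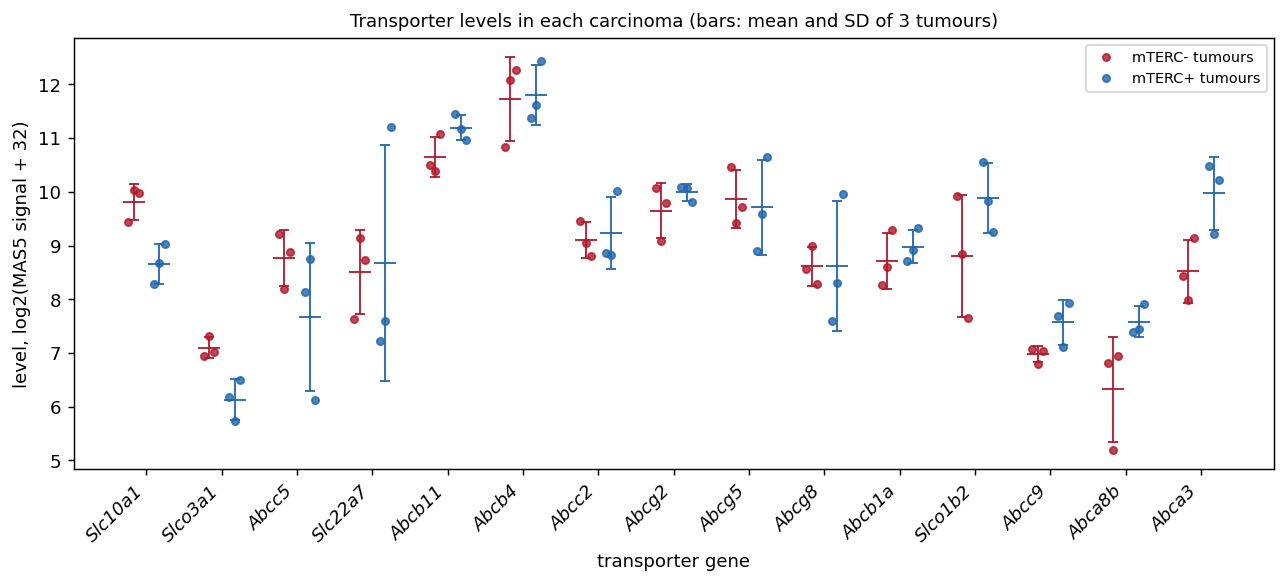
Level (log2 of MAS5 signal plus 32) of 15 members in each of the 6 carcinomas, with mTERC- tumours left of mTERC+ tumours for each gene, points for tumours and bars for the group mean and SD (n = 3). Slc10a1 and Slco3a1 separate upward and Abca3, Abca8b and Abcc9 downward, while Slc22a7 and Abcg8 are spread by mTERC+ tumour 3. Heights of different genes are not comparable.

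Of the ABCC exporters of the basolateral membrane and other sites, 5 of the 7 tested were higher in mTERC- tumours by mean level and none passed, with a median of 0.30. Abcc3 and Abcc4 return bile acids and glucuronides to blood. Abcc3 read 2791, 1287 and 1651 in mTERC- tumours and 1263, 2175 and 2902 in mTERC+ tumours (difference -0.14). Abcc4 read 900, 551 and 305 in mTERC- tumours and 416, 235 and 348 in mTERC+ tumours (difference 0.67). Abcc5, a cyclic nucleotide exporter, differed by 1.10 on its main probe set and by 0.04 to 0.80 on its other 6 tested probe sets. Its value rested on mTERC+ tumour 3, which read 37.5 where the other 2 mTERC+ tumours read 248 and 401. Abcc1, the glutathione conjugate exporter, differed by 0.94 with overlap. Its other tested probe set gave -0.28, and without mTERC+ tumour 3, which read 9.7, the main difference was 0.33. Abcc6, whose loss causes ectopic mineralization, had a difference of -0.32. Abcc9 and Abcc8 encode sulfonylurea receptors, the regulatory subunits of ATP-sensitive potassium channels. Abcc8 had a difference of 0.84 with overlapping groups. Abcc9 was lower in mTERC- tumours on all 3 of its tested probe sets, by -0.60, -0.79 and -2.16. On the last of these it read 18.5, 15.9 and 51.3 in mTERC- tumours, against 268, 120 and 366 in mTERC+ tumours, with no overlap. That probe set had an unadjusted p of 0.000464 and an adjusted p of 0.873 in limma over all probe sets. Abcc9 is known from vascular smooth muscle and pericytes. Stellate cell and fibroblast markers (7 of 7 measured) summed to 3550 to 5346 in mTERC- tumours and 2799 to 5942 in mTERC+ tumours.

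Among the lipid ABC transporters, Abca3 loads phospholipid into lung lamellar bodies and lies on chromosome 17 from 24351921 to 24410204. Its signal was 313, 222 and 532 in mTERC- tumours, against 1393, 559 and 1164 in mTERC+ tumours. The groups did not overlap, although mTERC- tumour 3 and mTERC+ tumour 2 lay close, and the log2 difference was -1.45 (SE 0.42, 95% interval -2.34 to -0.55, limma adjusted p = 0.906). The other tested probe set read 171, 202 and 244 in mTERC- tumours and 504, 220 and 493 in mTERC+ tumours, a difference of -0.81 with overlap. Abca8b, of a group of lipid transporters clustered on chromosome 11, read 80.7, 4.7 and 91.6 in mTERC- tumours and 135, 143 and 209 in mTERC+ tumours. Its difference was -1.26, and -0.70 without mTERC- tumour 2, the array with the high Gapdh ratio. Its neighbours in the cluster had differences of 0.20 for Abca8a, 0.27 for Abca5 and -0.36 for Abca9, and whether these differ from that of Abca8b was not tested. Abca1, which lipidates apolipoprotein A1 to form HDL, had a difference of 0.004 on its main probe set. A further tested probe set of Abca1 gave -1.40, with 13.7 in mTERC- tumour 2. Abcg1, a cellular cholesterol exporter, had a difference of -0.40, and Abcg3 had one of -0.65 that changed sign to 0.305 on the probe set with the highest mean signal. Of the 12 lipid ABC genes tested, 5 were higher and 7 lower in mTERC- tumours by mean level and none passed.

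The organelle transporters and the non-transport members had no member that passed, and their probe sets often disagreed. Abcd3, which brings branched fatty acids and bile acid precursors into peroxisomes, read 1339, 2131 and 3153 in mTERC- tumours and 2004, 1742 and 2510 in mTERC+ tumours (difference 0.01). Abcb6, Abcb8 and Abcb10, mitochondrial transporters, had differences of 0.01, 0.10 and -0.16. Abce1, the ribosome recycling factor, had one of 0.71 with overlapping groups, and -0.04 on its other tested probe set. Abcb9, a lysosomal peptide transporter, had a difference of -0.39, and 0.12 on its other tested probe set. Abcd2, a peroxisomal importer of very long fatty acids, read 14.0 in mTERC- tumour 2 and 195 to 476 in the other 5 tumours. Its difference was -0.55, and 0.44 on its other tested probe set. Over all tested members, 22 had more than 1 tested probe set, and for 10 of these a further probe set had the opposite sign to the main one.

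The 29 members below the filter include several that are known from kidney, intestine, brain or testis, such as Slc22a2, Slc22a8, Slc10a2, Slco1c1, Slco4c1 and Slco6d1. Slc10a2, the ileal bile acid carrier, read 11.3 to 63.0 in mTERC- tumours and 20.0 to 106 in mTERC+ tumours. Slco1a1 was also below the filter, although it is known as an abundant carrier of adult male mouse liver. It read 3.8, 72.3 and 3.9 in mTERC- tumours and 47.6, 49.9 and 75.4 in mTERC+ tumours, and it was 2.7 in the TRF2DBDM liver and 21.0 in the GFP liver. The X-linked Xist RNA, taken as a sex marker, read 921 in mTERC- tumour 1 and 9.6 to 68.4 in the other tumours. It read 3607 and 2308 in the TRF2DBDM and GFP livers, and its relation to Slco1a1 was not tested. With a covariate for the Y-linked genes no member passed either, and Slco1b2 had a difference of -0.78. The mean Y-linked level was 6.37 in mTERC- tumour 1, where Xist was high. It was 6.22 in mTERC- tumour 3, where Xist read 16.8. The covariate thus did not follow Xist, and this fit cannot show that sex is accounted for.

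Genes that act with the transporters were taken from 2 lists. Of 17 regulators of transporter genes, 15 were tested in the tumours, with 7 higher, 8 lower and none called. Nr1h3, the oxysterol receptor LXR alpha that drives Abca1, Abcg5 and Abcg8, read 671, 292 and 418 in mTERC- tumours and 815, 1287 and 598 in mTERC+ tumours, with overlap and an adjusted p of 0.953 in limma. Klb, the co-receptor for FGF15, read 835, 883 and 766 in mTERC- tumours and 249, 599 and 706 in mTERC+ tumours (difference 0.76). Nr0b2, the bile acid-induced repressor SHP, had a difference of 0.68, and Nr1h4, the bile acid receptor FXR, one of -0.07. Of 21 further genes of bile acid and organic ion handling, 16 were tested, with 4 higher, 12 lower and none called. Slc27a5, which activates bile acids for conjugation, read 1891, 1548 and 1244 in mTERC- tumours, against 3574, 2280 and 3800 in mTERC+ tumours. Its groups did not overlap, with a log2 difference of -1.01 and a limma adjusted p of 0.906.

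The adenovirus pair asks which transporters differ between liver given TRF2DBDM virus and liver given GFP virus. Each group was 1 pooled array, so there is no test, and the values compare these 2 pools. Of the 69 members on these arrays, 42 reached the median signal of 1 or both arrays and were compared, and 32 of them were higher and 10 lower in the TRF2DBDM pool. Over all 7789 genes compared, 4049 were higher and 3729 lower. A ratio of at least 2 on the level scale was reached by 12 members in the higher direction (28.6%, background 4.62% of 7789 genes) and by 2 in the lower direction (4.76%, background 2.90%). The median log2 ratio was 0.62 for the members and 0.02 for all genes compared. The filter lets a low gene in through the array where it is high, and 11 of the members entered through the TRF2DBDM array alone and 1 through the GFP array alone. Of the 30 members at or above the median on both arrays, 21 were higher and 9 lower, with a median of 0.41 beside 0.01 for such genes in all. Among these, 4 were at least 2-fold higher (background 3.53%) and 2 at least 2-fold lower (background 2.31%). With the arrays centred on their medians, 9 members were at least 2-fold higher and 2 lower, where 3.59% and 4.28% of all genes were. The 6 hepatocyte markers measured were also all higher in the TRF2DBDM pool, by log2 ratios of 0.07 to 0.78 (median 0.52), and 6 of 8 macrophage markers were also higher. So were 7 of 7 stellate cell and fibroblast markers, 6 of 7 endothelial markers and 5 of 7 T and B cell markers. Only 1 of 5 cholangiocyte markers, 1 of 5 neutrophil markers and 0 of 2 erythroid markers were higher. The part of these markers in the transporter ratios was not tested.

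**Figure D3:**
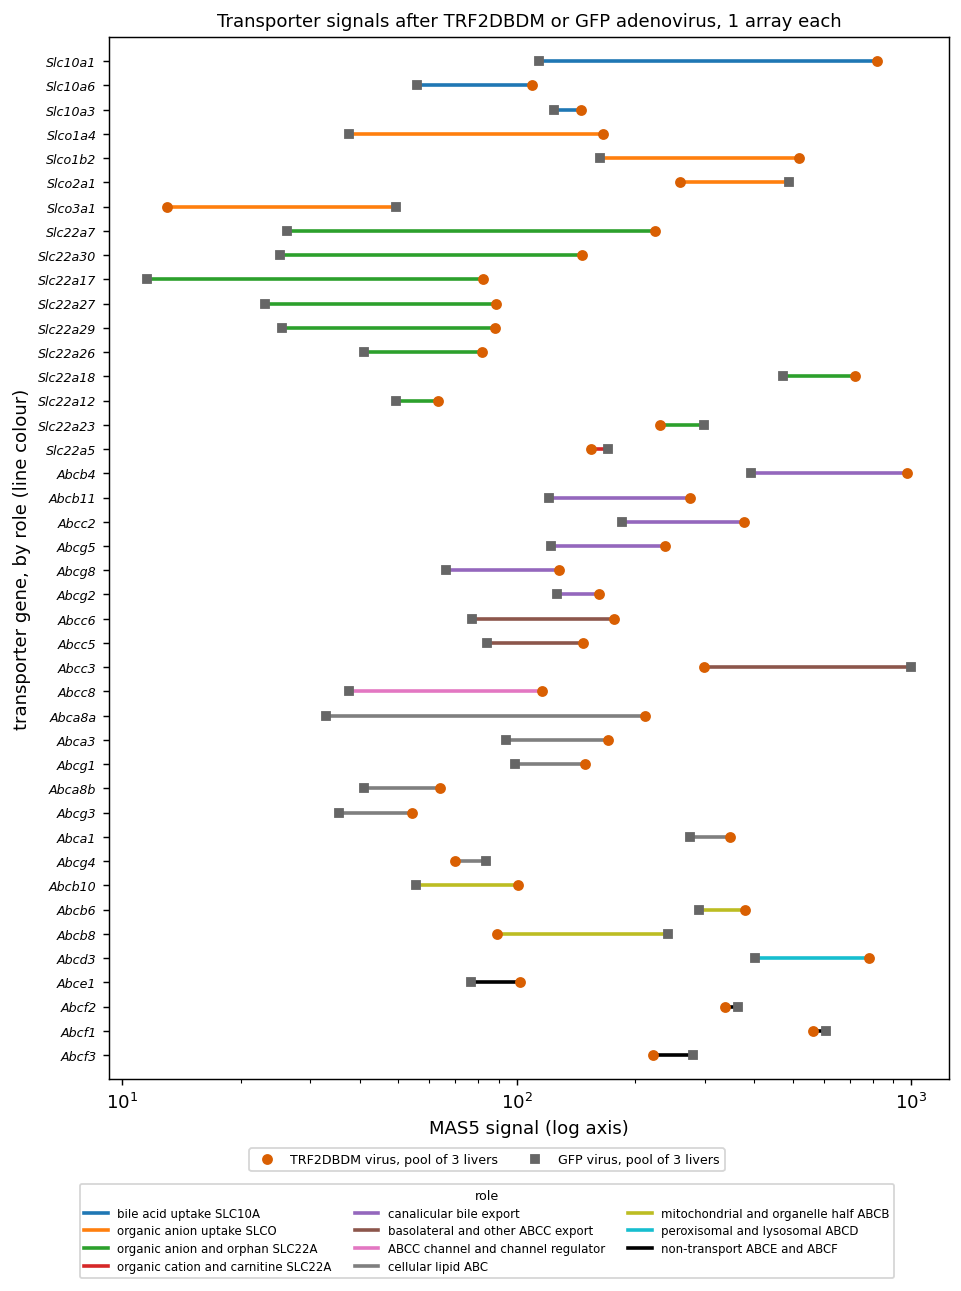
MAS5 signal (log axis) of the 42 compared members in the pooled TRF2DBDM liver (circles) and the pooled GFP liver (squares), grouped by role. Uptake carriers and canalicular exporters mostly have the circle to the right, with Slc10a1 at 817 against 114, while Abcc3 and Abcb8 have it to the left.

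The bile acid carrier Slc10a1 and the organic anion carrier Slc22a7 held the highest ratios of the 42 members, followed by the lipid transporter Abca8a. The Slco carriers were split, with 2 higher and 2 lower in the TRF2DBDM pool. Slc10a1 read 817 in the TRF2DBDM pool and 114 in the GFP pool, a log2 ratio of 2.54, which lay at percentile 99.7 of all genes compared. Its other probe set read 576 in the TRF2DBDM pool and 105 in the GFP pool, a log2 ratio of 2.16. Slc10a1 was thus several-fold apart on both probe sets. Slco1b2 read 518 in the TRF2DBDM pool and 163 in the GFP pool, a log2 ratio of 1.50. The other probe sets of Slco1b2 that passed the filter had log2 ratios of 1.26 and 0.89. Slco1a4, its neighbour on chromosome 6, read 165 in the TRF2DBDM pool and 37.7 in the GFP pool. Slc22a7 read 224 in the TRF2DBDM pool and 26.2 in the GFP pool. The GFP values of Slco1a4, Slc22a7 and Abca8a were below the array median, and these genes were compared through the TRF2DBDM array alone. Slco2a1 and Slco3a1 were lower in the TRF2DBDM pool. Slco2a1 read 259 in the TRF2DBDM pool and 489 in the GFP pool, and Slco3a1 read 13.0 in the TRF2DBDM pool and 49.5 in the GFP pool. Slco3a1 was below the array median in the TRF2DBDM pool and was compared through the GFP array alone. Its other probe sets, below the median on both arrays, had log2 ratios of -0.21 and -0.04. The carnitine carrier Slc22a5 read 154 in the TRF2DBDM pool and 170 in the GFP pool, and its other probe set that passed had a log2 ratio of 0.07.

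The RefSeq promoter windows of Slc10a1, Slco1b2 and the exporter Abcb11 are shown as examples of genes that were higher in the TRF2DBDM pool. As background, Abcb11 is known as a target of the receptor FXR, and Slc10a1 and Slco1b2 as genes that depend on HNF1 alpha in mouse liver. The windows are chr12:80968030-80968329 on the minus strand for Slc10a1, chr6:141629268-141629567 on the plus strand for Slco1b2 and chr2:69342567-69342866 on the minus strand for Abcb11 (GRCm38.p6), each written 5′ to 3′ in the direction of the gene. Capitals mark AGGTCA, the core of nuclear receptor elements, and GTTAAT, the core of HNF1 elements, on either strand. The windows of Abcb4 and Slco1a4, which were also at least 2-fold higher in the TRF2DBDM pool, hold neither motif and are not printed. Slc10a1 has a further RefSeq window at chr12:80968656-80968955, whose start site is the outer end of the gene as given above, and it holds neither motif. Both Slc10a1 windows are printed, the one at 80968030 first.
Slc10a1: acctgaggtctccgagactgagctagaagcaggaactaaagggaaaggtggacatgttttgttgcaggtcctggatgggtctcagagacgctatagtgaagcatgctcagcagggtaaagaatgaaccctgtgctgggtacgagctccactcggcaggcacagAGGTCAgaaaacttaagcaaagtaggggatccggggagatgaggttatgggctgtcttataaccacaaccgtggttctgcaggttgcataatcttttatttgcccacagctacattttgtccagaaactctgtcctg
Slc10a1, outer start: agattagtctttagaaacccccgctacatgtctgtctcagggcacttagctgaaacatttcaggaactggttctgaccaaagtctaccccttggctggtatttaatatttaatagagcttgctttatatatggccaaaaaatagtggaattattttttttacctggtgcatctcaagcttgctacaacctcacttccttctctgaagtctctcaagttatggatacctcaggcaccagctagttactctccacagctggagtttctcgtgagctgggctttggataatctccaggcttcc
Slco1b2: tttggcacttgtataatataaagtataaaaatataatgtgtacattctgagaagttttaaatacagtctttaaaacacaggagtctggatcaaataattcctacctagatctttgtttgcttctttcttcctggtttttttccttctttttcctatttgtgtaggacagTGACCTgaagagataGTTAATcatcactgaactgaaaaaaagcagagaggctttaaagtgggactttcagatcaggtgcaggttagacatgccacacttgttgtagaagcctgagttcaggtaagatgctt
Abcb11: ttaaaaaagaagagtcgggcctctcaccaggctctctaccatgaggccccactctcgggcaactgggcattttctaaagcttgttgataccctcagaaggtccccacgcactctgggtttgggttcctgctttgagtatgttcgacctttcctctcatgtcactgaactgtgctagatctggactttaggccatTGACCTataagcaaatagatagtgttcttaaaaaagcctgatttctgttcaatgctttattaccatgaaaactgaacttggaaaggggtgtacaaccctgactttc

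Windows were found for 71 of the 86 members, 84 windows in all since some genes have several starts. AGGTCA on either strand was present in 13 of these 84 windows (15.5%), against 16.3% of all 32851 windows. GTTAAT was present in 5.95% of member windows and 7.10% of all windows. The antioxidant response core TGACNNNGC was present in 13.1% and 12.4%, and the E box CACGTG in 9.52% and 7.15%. The member windows thus held these letters about as often as promoters at large, and a match in Slc10a1, Slco1b2 or Abcb11 does not show that a factor binds there.

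Of 8 canalicular exporters, 6 were compared, and all 6 were higher in the TRF2DBDM pool. Their log2 ratios had a median of 0.86. Abcb4 read 975 in the TRF2DBDM pool and 392 in the GFP pool. Abcb11 read 274 in the TRF2DBDM pool and 121 in the GFP pool, at a ratio of 2.01. Abcc2 read 377 in the TRF2DBDM pool and 185 in the GFP pool. The cholesterol pair had log2 ratios of 0.81 for Abcg5 and 0.70 for Abcg8, and Abcg2 had the lowest ratio of the 6, at 0.29. Abcb11 fell short of 2-fold with median centring, at a log2 ratio of 0.89. All 6 had a signal above the array median on both arrays.

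Abcc3, the basolateral exporter of glucuronides and bile acids, stood opposite to the canalicular genes. It read 299 in the TRF2DBDM pool and 996 in the GFP pool, a log2 ratio of -1.64 at percentile 0.5 of all genes compared. Abcc6 had a log2 ratio of 0.94. Abcc5 had one of 0.63 on its main probe set, and 0.17 and -0.27 on the other 2 that passed the filter. The last of these is the main Abcc5 probe set of the tumours and read 47.1 in the TRF2DBDM pool and 63.2 in the GFP pool. Abcb8, a mitochondrial transporter, read 89.2 in the TRF2DBDM pool and 242 in the GFP pool. Its other probe set, below the median on both arrays, had a log2 ratio of 0.36, so its probe sets disagreed in direction. Abcf1, Abcf2 and Abcf3 had log2 ratios of -0.11, -0.10 and -0.30, and Abce1 one of 0.31. The other probe sets that passed gave 0.03 to 0.71 for Abcf1, 0.54 for Abcf3 and -0.60 for Abce1, so these 3 genes have no settled direction. Of 11 members with more than 1 probe set past the filter, 6 had one of the opposite sign to the main one.

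Several Slc22a genes of chromosome 19 lie side by side between 7780094 and 8405111, and they are described together although they were singled out after their values were seen. Slc22a26, Slc22a27, Slc22a29 and Slc22a30 had log2 ratios of 0.64, 1.13, 1.06 and 1.64. In the TRF2DBDM pool they read 81.8, 88.7, 87.9 and 147. In the GFP pool they read 41.0, 23.0, 25.4 and 25.2, all below the array median. The 4 genes were thus compared through the TRF2DBDM array alone, and the filter fixed their direction. The other Slc22a26 probe set, below the median on both arrays, went the other way, at a log2 ratio of -0.12. The probe sets used for Slc22a27 and Slc22a29 are of a type that can bind related transcripts, so the signal may be shared among these near copies. In the tumours only Slc22a30 of the 4 passed the filter, with 114, 192 and 170 in mTERC- tumours and 181, 129 and 134 in mTERC+ tumours, which overlap. The promoter windows of Slc22a29 and Slc22a30 were 66.5% identical over 325 aligned columns, while the other 5 pairs among the 4 genes were 45.9% to 51.5% identical. The 2 windows are printed to show that likeness, at chr19:8218851-8219150 and chr19:8405056-8405355, both on the minus strand and written 5′ to 3′, with capitals for GTTAAT on either strand.
Slc22a29: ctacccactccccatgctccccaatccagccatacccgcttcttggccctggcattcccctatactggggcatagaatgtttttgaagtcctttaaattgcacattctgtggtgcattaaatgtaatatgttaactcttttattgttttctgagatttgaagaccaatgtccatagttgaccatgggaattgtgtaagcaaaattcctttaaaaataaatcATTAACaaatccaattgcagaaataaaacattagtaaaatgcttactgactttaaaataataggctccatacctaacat
Slc22a30: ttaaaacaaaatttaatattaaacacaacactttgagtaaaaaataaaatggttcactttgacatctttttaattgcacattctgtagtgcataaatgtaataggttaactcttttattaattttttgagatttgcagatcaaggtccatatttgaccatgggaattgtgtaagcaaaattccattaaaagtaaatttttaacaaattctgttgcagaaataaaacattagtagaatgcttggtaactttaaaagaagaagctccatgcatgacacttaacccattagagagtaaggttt

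Of the lipid ABC genes, Abca8a read 211 in the TRF2DBDM pool and 32.9 in the GFP pool, a log2 ratio of 1.91, while its neighbour Abca8b had one of 0.39. In the GFP pool Abca8a and Abca8b were below the array median, and they were compared through the TRF2DBDM array alone. Abca1, Abcg1 and Abca3 had log2 ratios of 0.31, 0.47 and 0.69. Abcd3 read 781 in the TRF2DBDM pool and 402 in the GFP pool, just under 2-fold. Slc22a17, a receptor for lipocalin 2, read 82.3 in the TRF2DBDM pool and 11.6 in the GFP pool. The channel subunit Abcc8 read 116 in the TRF2DBDM pool and 37.6 in the GFP pool. Both were below the array median in the GFP pool. The members nearest to the 2-fold line were Abcb11 inside it, at a log2 ratio of 1.01, and Abcc6 outside it, at 0.94.

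Genes of bile acid handling outside the transporter families were also compared in these 2 pools. Of the 21 on the list, 15 were compared, with 11 higher and 6 at least 2-fold higher in the TRF2DBDM pool, beside 4049 higher of all 7789 genes and 4.62% at least 2-fold higher. Cyp7a1 and Cyp8b1, both among the 6, were compared through the TRF2DBDM array alone. Of the 13 at or above the median on both arrays, 9 were higher and 4 at least 2-fold higher, where 3.53% of such genes were. Cyp7a1, the rate-limiting enzyme of bile acid synthesis, read 190 in the TRF2DBDM pool and 34.9 in the GFP pool. Cyp8b1, which sets the share of cholic acid, read 337 in the TRF2DBDM pool and 10.2 in the GFP pool. The GFP values of Cyp7a1 and Cyp8b1 were below the array median of 46.1, so the size of their ratios is not secure. Slc27a5 read 2213 in the TRF2DBDM pool and 488 in the GFP pool, a log2 ratio of 2.11. Slc47a1, a canalicular exporter of organic cations outside the chosen families, Ephx1, an epoxide hydrolase, and Cyp27a1, a side-chain hydroxylase, had ratios of 1.24, 1.47 and 1.09 on the log2 scale. Of 15 regulators compared, 6 were higher and 1, Nr1h4, was at least 2-fold higher, at 206 in the TRF2DBDM pool and 77.4 in the GFP pool. Nr0b2, a target of Nr1h4, read 377 in the TRF2DBDM pool and 600 in the GFP pool, and Hnf4a had a log2 ratio of -0.36.

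The carcinomas were then set beside the virus-infected livers over the probe sets that both arrays hold. The 2 tables were scaled separately, and over all 7055 genes compared the tumours stood a median of 0.76 log2 units above the livers, so differences are given relative to that shift. Tumour and liver also differ in virus, transgene and array type, and in the signal of the sex marker Xist. Xist read 3607 in the TRF2DBDM liver and 2308 in the GFP liver, against 921 in mTERC- tumour 1 and 9.6 to 68.4 in the other tumours. These differences cannot be told apart here, and no test was made. All 6 tumours were above both livers for 14 of 39 members (35.9%), against a background of 44.3%, and below both for 0 of 39, against 2.61%. With each array centred on its median, the counts were 8 above and 2 below, where 17.6% and 14.3% of all genes were. With quantile normalization they were 5 and 3, where 15.9% and 16.9% were. The filter takes the mean over 8 arrays, 6 of them tumours, and so favours genes high in the tumours. The member shares lie near or below the background on each scale.

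All 7 canalicular exporters compared were among the 14 above both livers, where 44.3% of all genes compared were. Abcb11 read 1304 to 2744 in the 6 tumours, with a median of 2054, against 274 in the TRF2DBDM liver and 121 in the GFP liver. Relative to the shift of all genes its log2 difference was 2.40. Abcb1a read 277 to 607 in the tumours, against 43.7 in the TRF2DBDM liver and 19.0 in the GFP liver. Both liver values were below their array medians of 52.5 and 46.1, so the size of that gap is not secure. The other Abcb1a probe set read 5.6 to 109.9 in the tumours, 23.1 in the TRF2DBDM liver and 16.4 in the GFP liver, which overlap. Abcg2 read 509 to 1058, against 162 in the TRF2DBDM liver and 126 in the GFP liver, a relative difference of 1.60. Abcb4 and Abcg5 had relative differences of 1.65 and 1.35, Abcg8 of 0.88 and Abcc2 of 0.19. After median centring Abcb11, Abcb1a, Abcg2, Abcb4 and Abcg5 still had all tumours above both livers, and after quantile normalization Abcb11, Abcb1a, Abcg2 and Abcg5 did. The shares of all genes on these scales, and the filter that favours genes high in the tumours, are given above. The summed hepatocyte markers were 154900 to 236200 in the tumours and 58600 and 42390 in the TRF2DBDM and GFP livers, and their part in these differences was not tested.

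**Figure D4:**
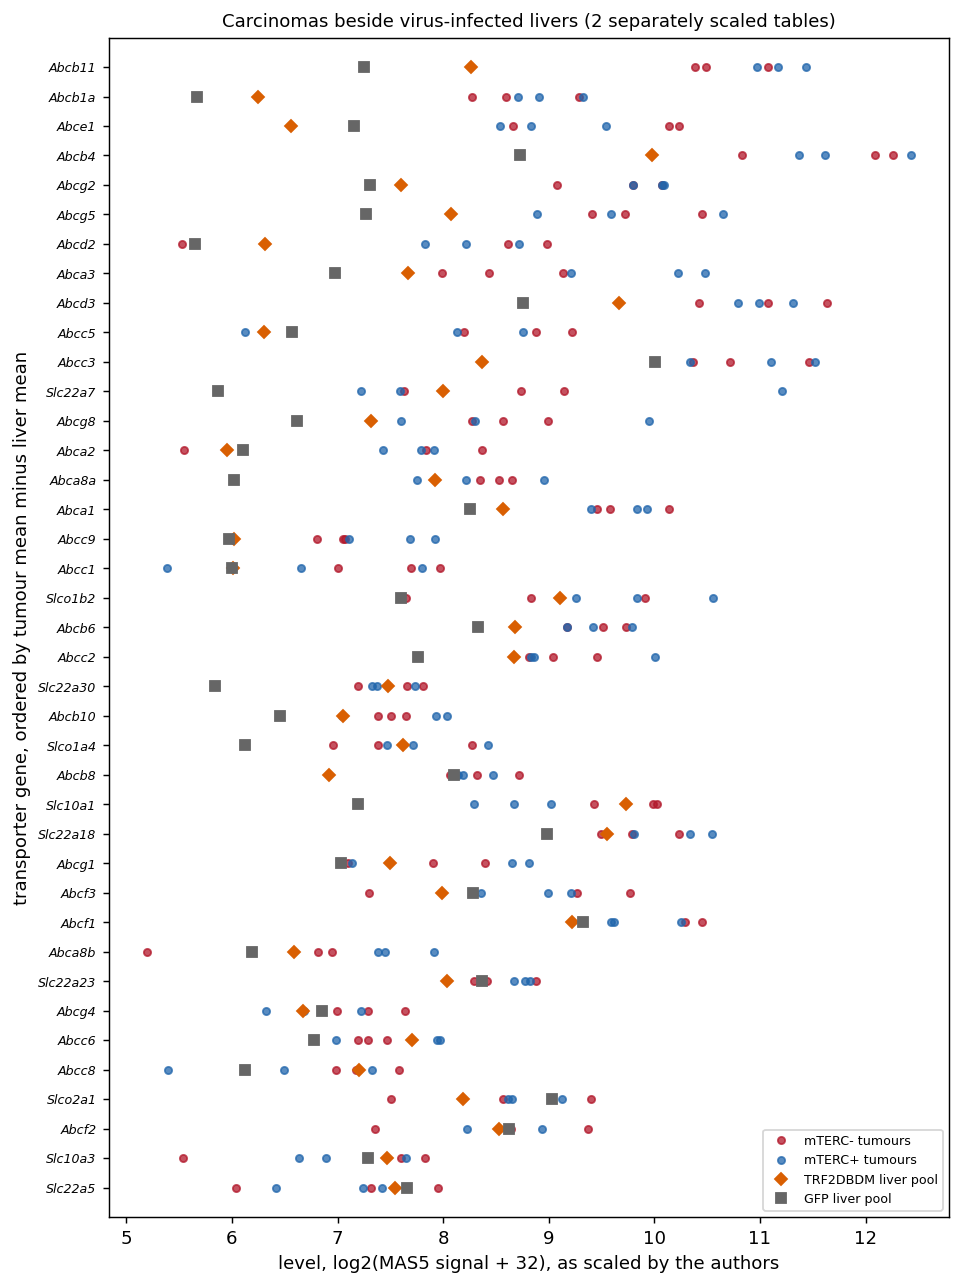
Level (log2 of MAS5 signal plus 32) of 39 members in the 6 carcinomas (circles) and in the TRF2DBDM (diamond) and GFP (square) liver pools, ordered by the difference of means. Abcb11 and Abcb1a at the top have all tumours well above both livers, and Slc22a5 and Slc10a3 at the bottom overlap with them. The median gene is 0.76 higher in the tumours on this scale.

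No Slc10a, Slco or Slc22a gene compared had all 6 tumours above both livers, where 44.3% of all genes compared did on the authors' scale. The genes compared were 2 Slc10a, 3 Slco, 4 organic anion or orphan Slc22a and 1 organic cation or carnitine Slc22a. The lower shares of all genes on the other scales are given above. Slc10a1 in the TRF2DBDM liver, at 817, lay within the range of the tumours, which read 281 to 1012, while the GFP liver lay below it at 114. Its difference relative to the shift was 0.01, and it was 0.23 for Slco1b2 and 0.07 for Slco1a4. Slc22a7 stood higher, at 0.89, beside 0.88 for the exporter Abcg8 and 0.19 for the exporter Abcc2. For Slc22a7 the tumours read 117 to 2331, against 224 in the TRF2DBDM liver and 26.2 in the GFP liver, which overlap. Slc22a5 and Slc10a3 stood lowest, at -1.30 and -1.12 relative to the shift, followed by Abcf2 at -0.82 and Slco2a1 at -0.72. After median centring or quantile normalization all 6 tumours were below both livers for Slc22a5 and Slc10a3, and after quantile normalization also for Abcf2. On the authors' scale all 6 tumours were above both livers for Abce1, Abcd3 and Abcc3. Their differences relative to the shift were 1.71, 1.06 and 0.97. Abce1 kept this after median centring and after quantile normalization, Abcd3 after median centring alone, and Abcc3 after neither. The 2 livers differed from each other in Abcc3 by 3.11-fold on the level scale. For Abcc3 the tumours read 1263 to 2902, against 299 in the TRF2DBDM liver and 996 in the GFP liver.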

How the data were processed

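Biotin-labelled cRNA from 6 microg of total RNA per array was hybridised to 2 types of Affymetrix array, per the labels. Per the submitters' processing notes, the authors deposited MAS5 signal intensities, which are linear, and the MAS5 version is not given in the sources used here. On every array the mean signal without the lowest and highest 2% was about 150, so the authors' scaling was kept. Arrays give no read depth, and the number of arrays limits precision. Levels were log2(signal + 32), with 1 probe set per gene, that with the highest mean level. This left 11980 of 18194 tumour genes at or above the median level of all probe sets. The tumour test used limma (version 3.58.1, run under R 4.3.3; trend, two-sided, Benjamini-Hochberg over all genes tested). The code was tested on simulated data. The adenovirus pair and the tumours beside livers were described without a test. Promoter windows came from RefSeq (GRCm38.p6). Members, gene lists and tests were chosen with earlier results of these data known. Genes named were a core set, the 8 members with the smallest unadjusted p in each direction, members at least 2-fold apart in the adenovirus pair, the 10 with the highest mean tumour signal, the largest gaps between tumours and livers, and neighbours in a cluster. Alternatives were other scalings, pseudocounts, level filters and probe set rules, leaving out each tumour, a covariate for Y-linked signal, weighting of arrays and a fit without the trend. The probe set with the highest mean signal and the level filters on both arrays or on their mean were added after seeing the data. Some members of these families are not reported here.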

Additional observations from a re-analysis of the deposited data

How the results depend on the processing

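No member passed limma's adjusted test in the tumours in any of the 18 alternatives, with a smallest adjusted p of 0.474 to 0.998 across them. The 16 tumour members named for their p kept their direction in 280 gene-by-alternative values, and Abcg3 changed sign, at 0.305 on the probe set with the highest mean signal against -0.655 on the main one. That tally leaves out further tested probe sets of opposite sign, such as those given above for Abcc1, Slco2b1 and Abce1. In the adenovirus pair the 12 members at least 2-fold higher became 5 with a pseudocount of 100, 7 with a filter at percentile 75 and 4 with the filter on both arrays, which leaves fewer genes. The 2 lower members became 1 with a pseudocount of 100 and 1 with the mean of probe sets. All tumours were above both livers for 14 members, and for 5 with quantile normalization, 8 with median centring and 25 with no level filter. They were below both for 0, and for 3 with quantile normalization and 2 with median centring. Leaving out 1 tumour gave 14 to 17 above and 0 to 1 below, the 1 without mTERC- tumour 3. The cause of these shifts was not tested, beyond the genes that each filter or scale lets in. No paired analysis was possible because the labels carry no replicate numbers. With 3 tumours a group and 1 pool a virus, small differences could not be resolved, and low signals near the array median are measured less well.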
